A study of Mus musculus with 2 samples.

Results

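Cycling stromal cells are the collagen-producing connective tissue cells of the scaffold that carried RNA of genes used for cell division. They were 84 of the 477 stromal cells, and of the 15360 cell barcodes, in 2 single-cell RNA libraries. A stromal cell was a barcode with at least 3000 UMIs (unique molecular identifiers, each standing for 1 captured RNA molecule) and under 20% mitochondrial UMIs. At least 1% of its UMIs came from the collagen genes Col1a1, Col1a2 and Col3a1. It also had at most 2 UMIs of Csf1r, none of Cd3e or Cdh5, at most 4 of Rgs5, Kcnj8 and Abcc9 together, and under 0.5% from S100a8 and S100a9, genes that mark macrophages, T cells, endothelium, mural cells and neutrophils. A cycling cell had a summed level of Mki67, Top2a, Birc5 and Cdk1 of at least 200 CPM (counts per 1e+06 UMIs of the cell). Members were thus chosen by the measured levels of the gate genes and of these 4 genes. The comparison cells were the 337 stromal cells under 50 CPM, here called low-proliferation cells, and 56 stromal cells lay between the limits.

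Both libraries came from a circular skull defect of 3.5 mm in female Balb/c mice aged 6 weeks, in which the periosteum was removed and a scaffold without cells, as wide as the hole, was placed. The scaffold was Gel100 in one group and Gel50_CS50 in the other, names that the sources used here do not spell out. At week 1, cells of 5 mice per group were pooled, released by enzymes that also included chondroitinase and hyaluronidase, freed of red cells, sorted as viable cells and made into 1 droplet 3′ library per group. Each group is thus 1 pooled library without replicates. No difference between scaffolds could be tested, and every interval below is a 95% interval for counting error only. UMIs of barcodes in 1 library share their mice, their digestion and their run.

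A dividing cell copies its DNA in S phase and separates the copies in mitosis. Replication origins are licensed by the Mcm proteins and the fork is run by polymerases with their clamp, while entry into mitosis is driven by Cdk1 with cyclins and the exit by a ubiquitin ligase, the anaphase-promoting complex. In a healing defect, fibroblasts and skeletal progenitors divide while they lay down matrix. Many replication genes are switched by E2F factors, and many mitotic genes by a repressor complex that reads the CHR motif and by the CCAAT-binding factor NF-Y.

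The start sites of 4 genes are shown. Among the replication genes these are Clspn, a checkpoint adaptor at the fork, and Mcm5, a subunit of the replicative helicase. Among the mitotic genes they are Hmmr, a spindle protein, and Cenpf, a kinetochore protein. Each had a high ratio of cycling over low-proliferation cells and was taken only from genes whose window held the motif of its group. That motif was E2F for replication genes and CHR for mitotic genes. Each window is the RefSeq sequence on the gene's strand from 250 bases before to 50 bases after the start, in build GRCm38.p6. Capitals mark matches on either strand to CCAAT, to the CHR motif (TTTGAA or TTCGAA) or to an E2F motif (TTTCCCGC, TTTCGCGC, TTTGCCGC or TTTGGCGC), and a match on the other strand appears as its reverse complement. The windows are Clspn at chr4:126556730-126557029 (plus strand), Mcm5 at chr8:75109259-75109558 (plus strand), Hmmr at chr11:40733388-40733687 (minus strand) and Cenpf at chr1:189688037-189688336 (minus strand).
Clspn: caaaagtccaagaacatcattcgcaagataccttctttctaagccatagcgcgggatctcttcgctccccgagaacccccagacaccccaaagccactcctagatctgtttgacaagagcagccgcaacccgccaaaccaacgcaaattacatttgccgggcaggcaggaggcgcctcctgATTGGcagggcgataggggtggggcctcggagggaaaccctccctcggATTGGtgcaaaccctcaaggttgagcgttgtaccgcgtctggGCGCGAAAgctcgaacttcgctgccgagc
Mcm5: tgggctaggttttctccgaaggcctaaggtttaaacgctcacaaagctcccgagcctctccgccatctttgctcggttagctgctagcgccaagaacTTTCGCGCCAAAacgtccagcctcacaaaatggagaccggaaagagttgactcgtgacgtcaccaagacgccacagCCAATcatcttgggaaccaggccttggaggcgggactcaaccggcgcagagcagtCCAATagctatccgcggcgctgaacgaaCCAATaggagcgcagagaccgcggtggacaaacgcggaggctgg
Hmmr: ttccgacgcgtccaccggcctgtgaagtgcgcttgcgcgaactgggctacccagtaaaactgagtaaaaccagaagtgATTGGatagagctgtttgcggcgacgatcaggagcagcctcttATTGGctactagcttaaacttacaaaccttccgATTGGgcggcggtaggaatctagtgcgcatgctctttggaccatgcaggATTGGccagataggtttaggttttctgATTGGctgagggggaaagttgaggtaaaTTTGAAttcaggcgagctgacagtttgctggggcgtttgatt
Cenpf: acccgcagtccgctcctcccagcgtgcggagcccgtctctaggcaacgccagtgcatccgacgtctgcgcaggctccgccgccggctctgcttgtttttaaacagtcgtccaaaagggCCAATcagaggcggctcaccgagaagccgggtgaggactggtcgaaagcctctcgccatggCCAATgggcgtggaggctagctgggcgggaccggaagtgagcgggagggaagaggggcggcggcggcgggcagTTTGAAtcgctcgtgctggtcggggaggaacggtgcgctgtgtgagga

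By this choice, the Clspn and Mcm5 windows held E2F matches, and the Hmmr and Cenpf windows held CHR matches. The CHR matches lay just after the start. In Mcm5 the E2F matches TTTCGCGC and TTTGGCGC overlapped on opposite strands. Over the lists, the CHR motif was in 46 of 66 windows of mitotic genes (69.7%), in 7 of 33 windows of replication genes (21.2%) and in 19.4% of 27025 windows of all genes. CCAAT was in 49 of 66 mitotic windows (74.2%), 21 of 33 replication windows (63.6%) and 37.9% of all windows. E2F motifs were in 3 of 66 mitotic windows (4.55%), 12 of 33 replication windows (36.4%) and 2.32% of all windows. Over the 5579 windows of genes measured in cycling over low-proliferation cells, CHR was in 13.4%, CCAAT in 38.3% and E2F motifs in 4.52%. The mitotic share of E2F motifs was thus near that of measured genes. A match is a description of letters and was not measured as a bound site.

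The cycling share of the stromal cells was lower in Gel50_CS50 than in Gel100, by less than the counting error. In Gel100, 27 of 126 stromal cells were cycling, 21.4% (exact 95% interval 14.6 to 29.6). In Gel50_CS50, 57 of 351 were, 16.2% (12.5 to 20.5). The difference, Gel50_CS50 minus Gel100, was -5.19 percentage points with an interval from -13.9 to 2.36, which spans 0. With a limit of 400 CPM the shares were 13.5% and 13.7%, and with Ccnb1, Ccna2, Cenpf and Nusap1 as rule genes 9.52% and 11.1%, so the direction of the difference turned. The collagen limit kept 215 barcodes in Gel100 and 705 in Gel50_CS50. Before the markers of other cells were applied, 36 and 119 of these reached the proliferation limit, which are nearly equal shares. The exclusion by Cdh5 removed 37 and 133 barcodes, of which 5 and 36 reached the limit. Cd3e removed 33 and 139 (5 and 13 at the limit), and Csf1r 12 and 68 (1 and 20). The mural genes removed 25 and 89 (1 and 8), and S100a8 with S100a9 0 and 11 (0 and 7). Some barcodes were removed by several limits at once.

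The 4 genes of the rule gave the members by construction, and their levels are described without a test. Mki67, a coat protein of mitotic chromosomes (7:135689784-135716361, minus strand), was at 297.2 CPM in cycling and 3.75 CPM in low-proliferation cells of Gel100, and at 400.8 and 2.86 CPM in Gel50_CS50. Its UMIs were found in 23 of 27 and 56 of 57 cycling cells, and in 11 of 82 and 31 of 255 low-proliferation cells. Top2a, the topoisomerase that untangles replicated DNA (11:98992943-99024189, minus strand), was at 402.2 and 3.48 CPM in Gel100 and at 443.1 and 3.82 CPM in Gel50_CS50. Birc5, which targets the Aurora B kinase to chromosomes (11:117849251-117855743, plus strand), had UMIs in 26 and 56 cycling cells. Cdk1, the mitotic kinase itself (10:69335146-69352938, minus strand), had UMIs in 20 and 49. All 4 were detected together in 17 of 27 cycling cells of Gel100 and in 46 of 57 of Gel50_CS50.

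The rule sum had a median of 563.4 CPM in the members of Gel100 and 849.1 CPM in those of Gel50_CS50, with maxima of 2684 and 2849 CPM. The members nearest to the limit had 217.9, 231.3 and 239.7 CPM in Gel100 and 217.9, 221.7 and 231.1 CPM in Gel50_CS50. The cells just below it had 176.1, 165.7 and 155.4 CPM, and 183.6, 178.8 and 178.2 CPM. Since a CPM limit is easier to reach with few UMIs, the counts behind it matter: members had a median of 48 and 55 UMIs of the rule genes. In Gel100, 4 members had 3 or fewer such UMIs, and in Gel50_CS50 the lowest member had 9. Among low-proliferation cells, 48 of 82 and 137 of 255 had no UMI of any rule gene.

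**Figure D1:**
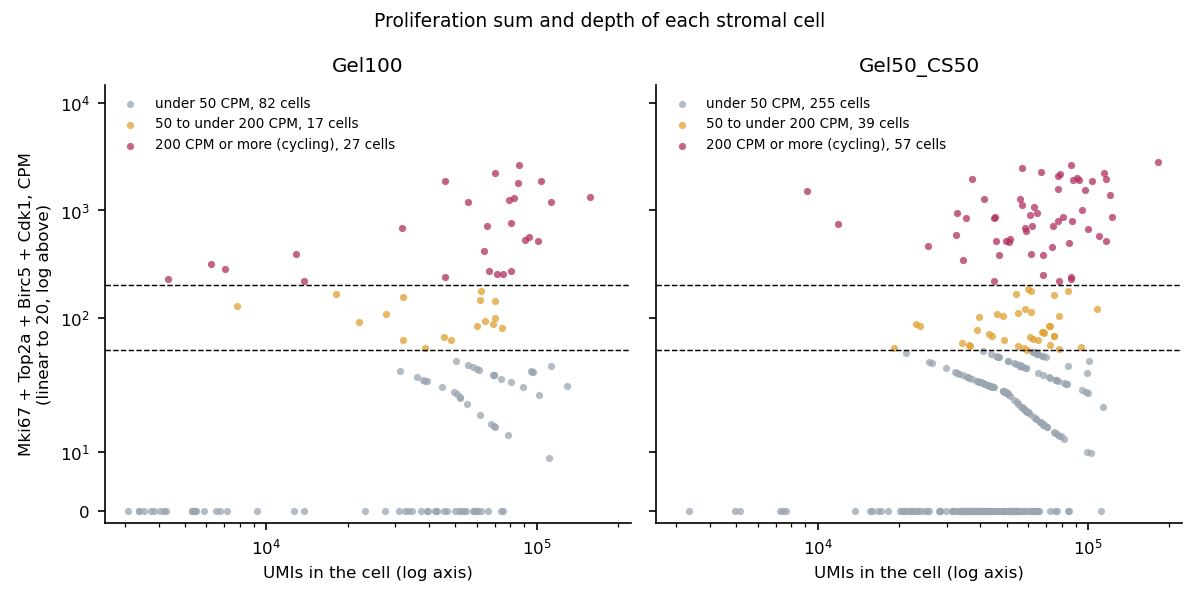
Summed level of Mki67, Top2a, Birc5 and Cdk1 in CPM (vertical axis, linear up to 20 and logarithmic above) against total UMIs (horizontal axis, logarithmic) for each stromal cell, with a panel per scaffold and dashed lines at 50 and 200 CPM. The 27 Gel100 members and 57 Gel50_CS50 members lie above the upper line, up to 2684 and 2849 CPM, and most are deep cells.

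The labelled cell type was set beside its markers, of which the collagens and the rule genes were fixed by the choice of cells. Col1a1, the main chain of type I collagen, was found in all 84 members, at 9012 CPM in Gel100 and 10074 CPM in Gel50_CS50, beside 11856 and 12151 CPM in the low-proliferation cells. Outside the rule, Pdgfra, the receptor that marks mesenchymal cells, was found in 25 of 27 and 57 of 57 members. It was at 178.2 and 184.8 CPM, beside 205.6 and 285.4 CPM in low-proliferation cells. Prrx1, a transcription factor of limb and skull mesenchyme, was at 825.0 and 800.2 CPM, beside 916.7 and 846.6 CPM. Pdgfrb was at 62.6 and 113.4 CPM, beside 65.8 and 119.1 CPM. Lum was at 403.3 and 519.9 CPM, beside 916.2 and 873.9 CPM, and Dcn is given with the matrix genes. Cycling cells were deeper than low-proliferation cells, with medians of 71208 against 48086 UMIs in Gel100 and 68075 against 48357 in Gel50_CS50. Their median number of genes was 8247 and 8212, against 7122 and 7115, while their mitochondrial share was 2.19% and 2.47%, against 2.18% and 2.87%.

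RNA of other cell types was present at low levels and is given here as a whole. The 14 macrophage and monocyte markers, all detected, summed to 274.3 CPM in cycling and 373.1 CPM in low-proliferation cells of Gel100, and to 277.0 and 341.3 CPM in Gel50_CS50. Single members ranged from 113.8 to 2776 CPM in Gel100 and from 78.2 to 4374 CPM in Gel50_CS50. The neutrophil markers summed to 96.1 and 113.2 CPM in Gel100 and to 179.7 and 110.3 CPM in Gel50_CS50, where 1 member reached 4278 CPM. T and NK markers were at 29.0 and 13.7 CPM in Gel100 and at 3.95 and 18.5 CPM in Gel50_CS50, with Cd3e at 0 by the rule and Cd8a at 0 in all members. Endothelial markers were at 6.70 and 8.65 CPM in members, with Cdh5 at 0 by the rule and Vwf also at 0. Dendritic cell markers reached 1027 and 617.6 CPM in members, mostly from Bst2, which is also an interferon-stimulated gene. Pericyte and smooth muscle markers were at 36.9 and 31.9 CPM in members, but the highest single member had 1437 CPM in Gel100 and 219.9 CPM in Gel50_CS50. The lists for B cells, mast cells, erythroid cells, Schwann cells, epithelium and skeletal muscle summed to at most 3.46 CPM each in the members of either library. A caller of doublets, droplets that hold more than 1 cell, marked 0 members in Gel100 and 1 in Gel50_CS50. Of the barcodes, 24 sequences occurred in both libraries, and 1 of them was a member.

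Within the members, replication and mitosis genes were partly separate in single cells. A replication sum (licensing and fork lists) and a mitotic sum (the 4 mitotic lists without the rule genes) were taken for each cell, and a member was called S-leaning where its replication sum, relative to the member median, exceeded its mitotic sum. This cuts a continuous range and not types: 5 members in Gel100 and 7 in Gel50_CS50 lay within 0.5 log2 units of the division. S-leaning members were 13 of 27 in Gel100 (48.1%, 28.7 to 68.0) and 27 of 57 in Gel50_CS50 (47.4%, 34.0 to 61.0). In Gel100, 3 of the S-leaning members, with 4323, 6265 and 7037 UMIs, had replication sums of 319 to 568 CPM and mitotic sums of 463 to 1421 CPM, values also found in low-proliferation cells, so their leaning rests on few UMIs. Over cells with at least 10000 UMIs the S-leaning shares were 41.7% and 46.4%. The replication sum ran from 319 to 4592 CPM in Gel100 and from 328 to 4215 CPM in Gel50_CS50. The mitotic sum ran from 463 to 21434 CPM and from 1748 to 18183 CPM. The ranges of both scaffolds overlapped over nearly their whole width.

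**Figure D2:**
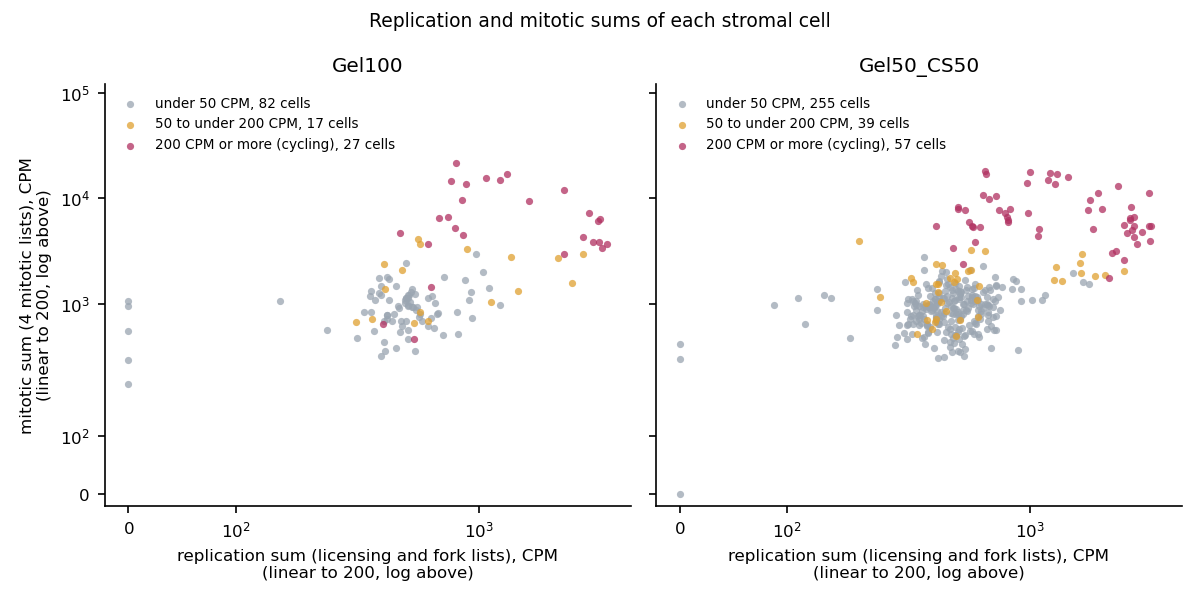
Replication sum against mitotic sum of each stromal cell in CPM (both axes linear up to 200 and logarithmic above), with a panel per scaffold and symbols for cycling, intermediate and low-proliferation cells. No low-proliferation or intermediate cell reached the members' lower quartile of the mitotic sum, 4412 CPM, whereas some of them reached the lower quartile of the replication sum, 653.3 CPM.

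Some cells outside the members reached the replication sums of members, while their mitotic sums stayed lower. Their choice by low levels of 4 genes of dividing cells favours low mitotic sums, and mitotic RNA was still present, with median sums of 925.5 and 908.2 CPM in low-proliferation and 1583 and 1637 CPM in intermediate cells. The lower quartile of the members' replication sum was reached by 12 of 82 low-proliferation cells in Gel100 (14.6%, 7.80 to 24.2) and by 21 of 255 in Gel50_CS50 (8.24%, 5.17 to 12.3). Among the intermediate cells it was reached by 7 of 17 and 9 of 39. The members' median replication sum, 1255 CPM, was reached by 5 of 17 and 9 of 39 intermediate cells and by 1 of 82 and 3 of 255 low-proliferation cells. The members' lower quartile of the mitotic sum was reached by 0 of 82, 0 of 255, 0 of 17 and 0 of 39 of these cells. With each cell thinned to 10000 UMIs and shallower cells left out, the members' lower quartile was 700 CPM, and 15 of 63 and 47 of 249 low-proliferation cells reached it.

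The genes followed the leaning from which it was drawn, and others outside those sums differed too. Among the genes used for the leaning, Mcm3 was at 177.1 CPM in S-leaning and 22.1 CPM in mitosis-leaning members of Gel100 and at 109.7 and 13.0 CPM in Gel50_CS50. Ccnb1, the cyclin partner of Cdk1, was at 20.2 and 133.8 CPM, and at 28.2 and 140.8 CPM. Outside them, Ccne2, a cyclin of S-phase entry, was at 103.4 and 5.27 CPM in Gel100 and at 51.5 and 0.56 CPM in Gel50_CS50. Hist1h1b, a linker histone made in S phase, was at 457.7 and 186.5 CPM, and at 883.9 and 212.8 CPM. The replication-coupled repair genes summed to 505.2 and 167.5 CPM in Gel100 and to 457.6 and 134.0 CPM in Gel50_CS50, and the nucleotide synthesis genes to 1800 and 1103 CPM, and to 1568 and 835.6 CPM. Of the rule genes, Top2a and Cdk1 were near equal in both leanings, while Mki67 was at 215.2 CPM in S-leaning and 369.8 CPM in mitosis-leaning members of Gel100 and at 299.5 and 530.4 CPM in Gel50_CS50. Birc5 had 142.6 and 249.7 CPM, and 139.2 and 301.8 CPM. The fibrillar matrix genes summed to 24397 and 24653 CPM in Gel100 and to 26905 and 28919 CPM in Gel50_CS50, with S-leaning members first.

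Against the low-proliferation cells of the same library, cycling cells had most measured genes of DNA replication and mitosis and of ribosome assembly at higher levels, while the median gene of the matrix and protease lists was lower. The rule used this contrast, so the values describe the members and test nothing. Of 7007 genes whose mean reached 20 CPM, 608 (8.68%) were at least 1.5-fold higher in cycling cells in both libraries and 402 (5.74%) were at least 1.5-fold lower in both. Of the 195 genes on the cell cycle lists, 148 were measured and 139 were at least 1.5-fold higher in both libraries. Both counts include the rule genes. A gene rare in low-proliferation cells reaches the limit on the mean only through its level in cycling cells. The limit thus favours high ratios among the measured genes, and list genes with low means are not counted. The genes of the cell cycle lists gave 1.97% and 1.93% of all UMIs in cycling cells against 0.362% and 0.341% in low-proliferation cells. The median log2 ratio over all measured genes was 0.01 in Gel100 and 0.03 in Gel50_CS50.

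The licensing genes, which load and fire replication origins, had a median log2 ratio of 3.19 in Gel100 and 2.82 in Gel50_CS50. All 9 measured genes were at least 1.5-fold higher in both, and the rest of the 16 listed fell below the limit on the mean. Mcm5 was at 62.6 and 6.69 CPM in cycling and low-proliferation cells of Gel100, a log2 ratio of 3.22 (2.59 to 3.91), and at 53.4 and 4.70 CPM in Gel50_CS50, 3.51 (3.09 to 3.95). Gmnn, the geminin that blocks a second licensing, was at 63.1 and 3.21 CPM, and at 64.0 and 4.22 CPM. All 17 measured fork genes were higher, with medians of 2.10 and 2.12. Pcna, the sliding clamp, was at 170.9 and 39.9 CPM in Gel100 and at 137.7 and 31.7 CPM in Gel50_CS50, so it was also well detected in low-proliferation cells. Clspn was at 77.1 and 1.61 CPM, and at 82.0 and 2.55 CPM, with ratios of 5.58 (4.43 to 7.06) and 5.01 (4.48 to 5.58), and was thus rare in low-proliferation cells.

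Genes that feed and pack the new DNA were higher as well. For nucleotide synthesis the median was 1.19 and 1.11, with 12 of 17 genes past 1.5-fold in both. Rrm2, the regulated subunit of ribonucleotide reductase, had log2 ratios of 5.95 (4.88 to 7.28) and 5.26 (4.78 to 5.79). Tk1, thymidine kinase, was at 101.7 and 3.21 CPM, and at 86.5 and 3.42 CPM, whereas Cad, of de novo pyrimidine synthesis, had ratios of 0.40 (-0.08 to 0.87) and 0.28 (-0.05 to 0.60). All 4 measured genes of replication-coupled repair were past 1.5-fold, with medians of 5.27 and 4.35. All 11 measured histone genes were past 1.5-fold in both libraries, with medians of 3.80 and 4.26. Hist1h1b was at 313.9 and 0.27 CPM in Gel100 and at 589.4 and 2.86 CPM in Gel50_CS50, and H2afz, a polyadenylated variant, at 678.1 and 136.5 CPM, and at 848.6 and 167.3 CPM. Most replication-dependent histone RNA lacks a poly(A) tail, so a 3′ library primed on poly(A) counts it incompletely.

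Most mitotic lists had high medians. Mitotic cyclins, kinases and regulators reached 6.31 and 6.42 (13 of 13 measured genes), the spindle and its motors 5.57 and 5.87 (20 of 20), the centromere and kinetochore 5.50 and 5.64 (16 of 16), and cytokinesis with mitotic exit 4.63 and 4.59 (15 of 15). The limit on the mean, which favours high ratios here, kept 13 of the 21 listed mitotic regulators. Condensin, cohesin and mitotic chromatin genes reached 2.35 and 2.19 (14 of 15), with the heterochromatin protein gene Cbx5 the exception at 0.57 and 0.79. Ccnb1 was at 80.4 and 0.54 CPM in cycling and low-proliferation cells of Gel100 and at 77.6 and 0.16 CPM in Gel50_CS50. Plk1, the kinase that matures centrosomes, was at 69.3 and 0.27 CPM, and at 60.5 and 0.80 CPM. Cenpf was at 256.4 and 1.34 CPM, and at 275.1 and 1.67 CPM. Hmmr was at 161.4 and 0.80 CPM, and at 195.0 and 0.32 CPM. For these genes the low-proliferation value rested on a few UMIs, so the ratio has a wide interval, as for Ccnb1 with 7.23 (5.35 to 10.3) and 8.93 (7.06 to 12). Ube2c, which serves the anaphase-promoting complex, was at 173.7 and 1.87 CPM, and at 189.1 and 1.83 CPM, while Tubb5, a tubulin used outside mitosis too, had ratios of 1.27 (1.17 to 1.38) and 1.26 (1.19 to 1.32).

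The G1/S list, whose genes start the cycle, had medians of 0.74 and 0.68, and 4 of 7 measured genes were past 1.5-fold in both libraries. Only 7 of its 14 genes reached the limit of 20 CPM, and with no such limit the medians were 1.75 and 1.75. Ccnd1, cyclin D1, which couples growth signals to the cycle, was at 145.8 and 45.0 CPM in Gel100, a ratio of 1.70 (1.41 to 1.99), and at 71.7 and 44.9 CPM in Gel50_CS50, 0.68 (0.47 to 0.88). In Gel100, 36.0% of the members' Ccnd1 UMIs came from 1 cell. Cdk4, its kinase partner, had 0.74 (0.51 to 0.98) and 0.74 (0.60 to 0.88). Of 17 measured inhibitors and quiescence genes, 3 were past 1.5-fold higher and 2 past 1.5-fold lower. Cdkn1c, the inhibitor p57, was at 25.1 and 90.2 CPM in Gel100, -1.84 (-2.33 to -1.39), and at 28.9 and 103.9 CPM in Gel50_CS50, -1.85 (-2.13 to -1.57). Klf2, a factor of quiescent cells, was the other lower gene. The 3 higher ones were Cdkn2c and Cdkn2d, inhibitors of the cyclin D kinases, and Rbl1, a pocket protein that E2F factors themselves induce, with Rbl1 at 1.91 (1.38 to 2.47) and 1.94 (1.59 to 2.30).

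Growth and energy genes were split. Ribosome biogenesis genes had medians of 1.13 and 0.85 with 11 of 13 past 1.5-fold in both, for example Ncl, nucleolin, at 963.0 and 434.7 CPM in Gel100 and at 783.9 and 419.9 CPM in Gel50_CS50. Oxidative phosphorylation genes had medians of 0.33 and 0.34 with 0 of 15 past 1.5-fold. Glycolysis and hypoxia genes had 0.30 and 0.20, with 0 of 16 higher and only Hk1, hexokinase 1, lower. The ribosome genes thus differed from the energy lists in size within the same cells, as the list medians by library show.

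**Figure D3:**
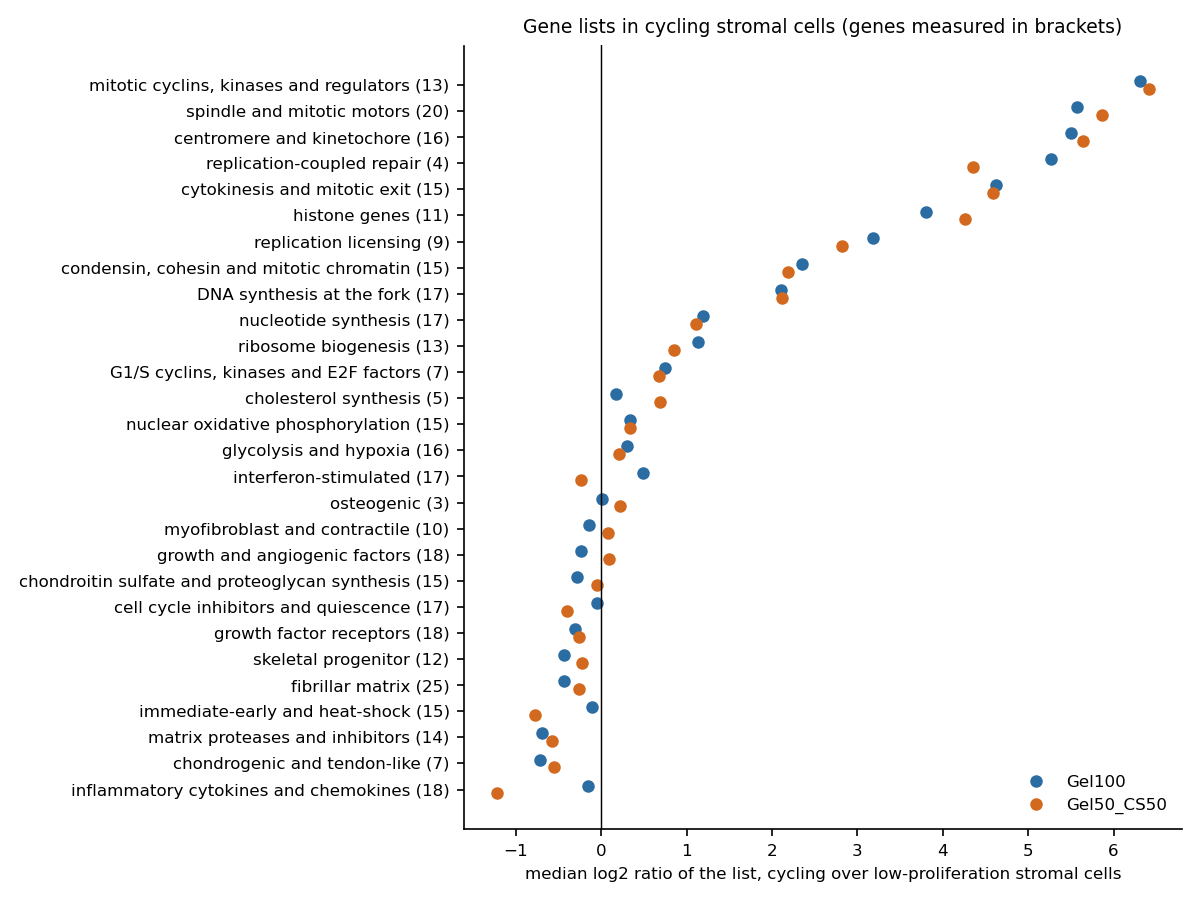
Median log2 ratio of cycling over low-proliferation stromal cells (horizontal axis) for each gene list (rows), with a symbol per library. Most mitotic lists sit at the right, up to 6.42, the licensing and fork lists between 2.10 and 3.19, and most matrix, protease and receptor lists to the left of 0.

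Matrix and signalling genes were lower in part. The fibrillar matrix list had medians of -0.44 and -0.26, and 4 of 25 genes were at least 1.5-fold lower in both libraries: Col14a1, Eln, Dcn and Lum. Dcn, decorin, which binds collagen fibrils, was at 1569 CPM in cycling and 2436 CPM in low-proliferation cells of Gel100 and at 1242 and 2511 CPM in Gel50_CS50, with ratios of -0.63 (-0.70 to -0.57) and -1.02 (-1.06 to -0.97). Col3a1 was at 11675 and 17938 CPM, and at 12731 and 17318 CPM. The matrix proteases and their inhibitors had medians of -0.69 and -0.57, with 6 of 14 lower. Among them Timp3, a matrix-bound protease inhibitor, was at 136.8 and 338.3 CPM, and at 47.7 and 137.5 CPM, and Mmp2, gelatinase A, had -1.09 (-1.27 to -0.90) and -0.96 (-1.07 to -0.85). Matn4, a cartilage-type matrix adaptor, was at 0.56 and 19.5 CPM in Gel100 and at 1.73 and 60.0 CPM in Gel50_CS50.

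Of 18 growth factor genes, 4 were lower and none was higher by 1.5-fold in both. Igf1, insulin-like growth factor 1 (10:87858265-87937042, plus strand), was at 8.38 CPM in cycling and 78.2 CPM in low-proliferation cells of Gel100, -3.22 (-4.08 to -2.48), and at 15.3 and 96.2 CPM in Gel50_CS50, -2.65 (-3.04 to -2.28). Tgfbr2, the signalling receptor for TGF-beta, was at 222.3 and 386.5 CPM, and at 184.1 and 350.2 CPM. The osteogenic list had only 3 measured genes, and Ibsp, Bglap, Bglap2 and Dmp1 of mature bone cells were at 0 in all members. Runx2, the master factor of bone lineage, was at 220.1 and 218.7 CPM in cycling and low-proliferation cells of Gel100 and at 327.2 and 321.0 CPM in Gel50_CS50. Its ratios were 0.01 and 0.03, so its level did not differ between the 2 classes beyond counting error.

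Outside the cell cycle lists, 6859 measured genes included 469 higher and 402 lower by 1.5-fold in both libraries. The 12 highest by the weaker library were led by Pclaf (9:65890237-65903266, plus strand), which binds Pcna, at 232.4 and 5.62 CPM in Gel100, 5.37 (4.74 to 6.08), and at 268.1 and 7.72 CPM in Gel50_CS50, 5.12 (4.82 to 5.43). D030068K23Rik and Slfn9 followed, with ratios of 3.94 and 4.07 for the first and 4.19 and 3.34 for Slfn9. Cenpp, Diaph3, Rangap1, Hells, Atad2, Fam111a, Nasp, Selenoh and Nucks1 made up the rest, and several of these encode centromere, chromatin or cytoskeletal proteins of dividing cells: Diaph3, a formin that builds actin filaments, was at 435.1 and 48.5 CPM, and at 427.3 and 32.4 CPM. Hells, a chromatin remodeller, was at 134.6 and 21.7 CPM, and at 112.4 and 12.9 CPM.

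The 12 lowest outside those lists were Lbp, Pi16, Cdkn1c, Saa3, Ror1, Scara5, Lrmda, Mfap4, Ccl4, Clec3b, Lama2 and Abca1. Clec3b, tetranectin, was at 101.1 CPM in cycling and 288.8 CPM in low-proliferation cells of Gel100 and at 96.4 and 379.7 CPM in Gel50_CS50. Pi16, a marker of progenitor-like adventitial fibroblasts (17:29317680-29330593, plus strand), was at 25.7 and 108.1 CPM, and at 29.2 and 222.0 CPM. Most of the Pi16 UMIs of members came from 1 cell in each library, and without each sum's richest cell its ratios were -3.34 and -4.91 in place of -2.07 and -2.93. Lbp, the lipopolysaccharide-binding protein, was at 5.59 and 74.7 CPM, and at 24.5 and 121.9 CPM. Saa3, an acute-phase protein, had -1.93 and -1.71, but among the cells without any UMI of Ptprc, Tyrobp and Csf1r, 9 members in each library, it had 0.05 and 1.48.

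Between scaffolds, cycling cells of Gel50_CS50 had lower interferon-stimulated and inflammatory genes and higher RNA of several collagens than cycling cells of Gel100. Most division genes were close. In 6997 measured genes, 445 (6.36%) were at least 1.5-fold higher and 518 (7.40%) at least 1.5-fold lower in the members of Gel50_CS50, and the median log2 ratio over all genes was 0.00. With 1 pooled library per scaffold, mice, surgery, dissociation and library cannot be told apart from the scaffold. For many genes and lists, but not for all, the value in low-proliferation cells of the same libraries is given beside that in cycling cells. The difference between the ratios was not tested.

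Of the 17 measured interferon-stimulated genes, which cells switch on to resist viruses, 16 were at least 1.5-fold lower in cycling cells of Gel50_CS50 and none was higher, with a list median of -1.22 in cycling cells and -0.57 in low-proliferation cells. Isg15, a ubiquitin-like protein (4:156199424-156200818, minus strand), was at 1033 CPM in cycling cells of Gel100 and 456.7 CPM in those of Gel50_CS50, -1.18 (-1.27 to -1.08), beside 522.2 and 404.2 CPM in low-proliferation cells, -0.37 (-0.45 to -0.29). Its UMIs were in 26 of 27 and 53 of 57 members. Irf7, which amplifies interferon production, was at 282.6 and 87.7 CPM in cycling cells and at 281.0 and 128.4 CPM in low-proliferation cells. Rsad2, viperin (12:26442746-26456452, minus strand), was at 132.9 and 10.9 CPM, -3.61 (-4.11 to -3.14), and at 80.8 and 37.8 CPM, -1.10 (-1.31 to -0.88). Irf1 was the 1 measured gene of the list not past 1.5-fold, at 73.7 and 65.2 CPM in cycling cells. For Isg15 and Irf7, low-proliferation cells of Gel50_CS50 lay within 1.5-fold of its cycling cells, and for Rsad2 they were higher.

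The interferon result depended on which cells were counted as stromal. Per cell, the summed list had a median of 3329 CPM (319 to 10318) over the members of Gel100 and 1399 CPM (322 to 7534) over those of Gel50_CS50, so the ranges overlapped. Over low-proliferation cells the medians were 2254 and 1359 CPM. Where stromal cells had to lack every UMI of the leukocyte genes Ptprc, Tyrobp and Csf1r, 9 members in each library remained, and the list median over genes was 0.05 in place of -1.22. Their per-cell medians were 3965 and 2674 CPM. These members were also shallower, with median depths of 45955 UMIs in Gel100 and 51102 UMIs in Gel50_CS50, beside 71208 and 68075 UMIs over all members. The part of depth in this change was not tested. Over the other alternatives the list median ranged from -1.31 to -1.10. The summed macrophage markers of the members were at 274.3 CPM in Gel100 and 277.0 CPM in Gel50_CS50. Within that list Ptprc was at 32.4 and 14.3 CPM, Tyrobp at 29.0 and 20.3 CPM and Lyz2 at 114.5 and 155.2 CPM, and the part of leukocyte RNA in the interferon result was not tested.

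Of 17 measured inflammatory cytokines and chemokines, 12 were at least 1.5-fold lower and 3 higher in cycling cells of Gel50_CS50, with list medians of -1.34 in cycling and -0.37 in low-proliferation cells. Ccl2, the monocyte attractant (11:82035571-82037453, plus strand), was at 1916 CPM in cycling cells of Gel100 and 507.8 CPM in those of Gel50_CS50, -1.92 (-2.0 to -1.84), beside 630.9 and 356.0 CPM in low-proliferation cells, -0.83 (-0.90 to -0.75). Cxcl1, a neutrophil attractant, was at 347.4 and 95.4 CPM, and at 257.2 and 238.7 CPM. Cxcl10, a T cell attractant induced by interferon (5:92346638-92348889, minus strand), was at 711.1 and 82.5 CPM, -3.11 (-3.29 to -2.93), and at 83.0 and 53.7 CPM, -0.63 (-0.82 to -0.43). A single cell held 36.4% of its UMIs in Gel100 and 49.7% in Gel50_CS50, where the median member had 0. Without each sum's richest cell the ratio was -3.56, and among the cells without UMIs of Ptprc, Tyrobp and Csf1r it was 1.12, so its direction turned there. Saa3, Il33 and Cxcl5 were the higher ones, with Il33, an alarmin, at 79.3 and 151.7 CPM in cycling cells.

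**Figure D4:**
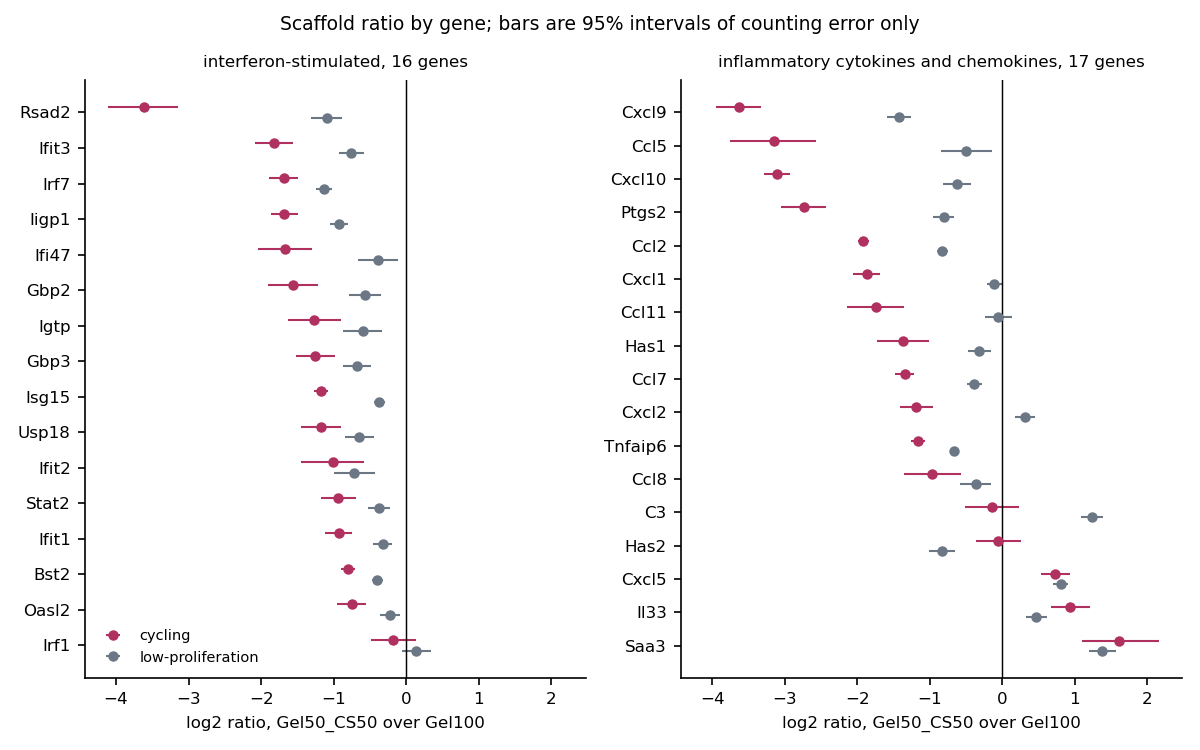
Log2 ratio of Gel50_CS50 over Gel100 (horizontal axis) for 16 interferon-stimulated and 17 inflammatory genes (rows) in cycling and low-proliferation stromal cells, with 95% intervals for counting error only. Most cycling points lie left of the low-proliferation points, from Cxcl9 at -3.63 to Saa3 at 1.61.

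The immediate-early and heat-shock genes, which answer to stress and growth signals within minutes, had list medians of -0.46 in cycling and -0.11 in low-proliferation cells, and 6 of 14 were at least 1.5-fold lower. Egr1 was at 385.4 and 169.0 CPM in cycling cells of Gel100 and Gel50_CS50 and at 414.1 and 388.0 CPM in low-proliferation cells. Dusp1, a phosphatase that shuts off MAP kinases, was at 161.4 and 55.1 CPM, and at 173.7 and 129.9 CPM. Of 16 inhibitors and quiescence genes, 6 were lower and none higher, among them Cdkn1a, the p53 target p21, at 112.8 and 47.9 CPM in cycling and at 87.3 and 77.7 CPM in low-proliferation cells.

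Most of the division genes themselves were close. List medians of the mitotic groups ran from -0.03 to 0.11 in members, licensing was at -0.24 and fork genes at -0.18. None of the 13 licensing, 23 fork, 6 repair, 20 mitotic regulator, 17 kinetochore or 21 spindle genes was past 1.5-fold. In the other cell cycle lists, 4 of 13 G1/S genes and 1 of 18 nucleotide synthesis genes were lower. Of 12 histone genes, 2 were higher and 1 lower. In the cytokinesis list 1 of 15 genes was higher, and in the condensin list 1 of 16. This closeness depended on the stromal gate for some lists. Among the cells without UMIs of Ptprc, Tyrobp and Csf1r, 9 members in each library, the histone median was 3.13 in place of 0.25. The rule gene median was 1.15 there in place of 0.11. The mitotic groups ran from 0.03 to 0.43, with licensing at -0.30 and fork genes at -0.08. Among single genes over all members, Ccnd1 was at 145.8 and 71.7 CPM, -1.02 (-1.27 to -0.78), beside 45.0 and 44.9 CPM in low-proliferation cells. Hist1h1b was at 313.9 and 589.4 CPM, and Hist1h2ap at 766.4 and 280.2 CPM. The latter belongs to a family of nearly identical histone copies, so its counts are uncertain.

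Collagens, contractile genes and receptors included members that were higher in cycling cells of Gel50_CS50. In the fibrillar matrix list, 7 of 25 genes were at least 1.5-fold higher and 2 lower, with a list median of 0.13 in cycling cells. Col12a1, a collagen on the surface of fibrils, was at 459.1 and 1138 CPM in cycling cells, 1.31 (1.20 to 1.42), and at 863.2 and 1347 CPM in low-proliferation cells, 0.64 (0.59 to 0.70). Col6a3, of the pericellular network, was at 697.7 and 1264 CPM, and at 796.3 and 1049 CPM. Col4a1 and Col4a2, chains of basement membrane collagen, were at 63.1 and 257.8 CPM and at 18.4 and 128.3 CPM in cycling cells. In low-proliferation cells they were at 156.6 and 308.8 CPM and at 101.4 and 182.3 CPM. Only 8 and 5 of the 27 Gel100 members had UMIs of them, and 1 cell held 44.2% and 45.5% of these UMIs. In Gel50_CS50 each was found in 29 of 57 members. Of 10 contractile genes, 5 were higher and none lower, with medians of 0.40 in cycling and 0.32 in low-proliferation cells. Tagln, an actin-binding protein of smooth muscle and myofibroblasts, was at 83.2 and 197.2 CPM in cycling cells and at 129.6 and 222.2 CPM in low-proliferation cells. Acta2, smooth muscle actin, was at 445.8 and 706.0 CPM in cycling cells.

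Receptors were higher in 5 of 18 and lower in none, with medians of 0.40 and 0.18. Egfr, the receptor for EGF, was at 134.6 and 307.2 CPM in cycling cells, 1.19 (0.99 to 1.40), and at 297.6 and 442.8 CPM in low-proliferation cells, 0.57 (0.48 to 0.67). Of 15 genes that build chondroitin sulfate and proteoglycans, 6 were higher and none lower, with medians of 0.35 in cycling and -0.02 in low-proliferation cells. The direction of the cycling median turned with each cell weighted equally (-0.04) and with cells thinned to 10000 UMIs (-0.07). Chsy3, a chondroitin synthase, was at 26.8 and 88.5 CPM, 1.72 (1.28 to 2.19), beside 80.3 and 100.0 CPM in low-proliferation cells, and was detected in 13 of 27 and 48 of 57 members. Dse, which turns glucuronate to iduronate in dermatan sulfate, was at 74.3 and 129.2 CPM, and at 96.1 and 120.5 CPM.

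**Figure D5:**
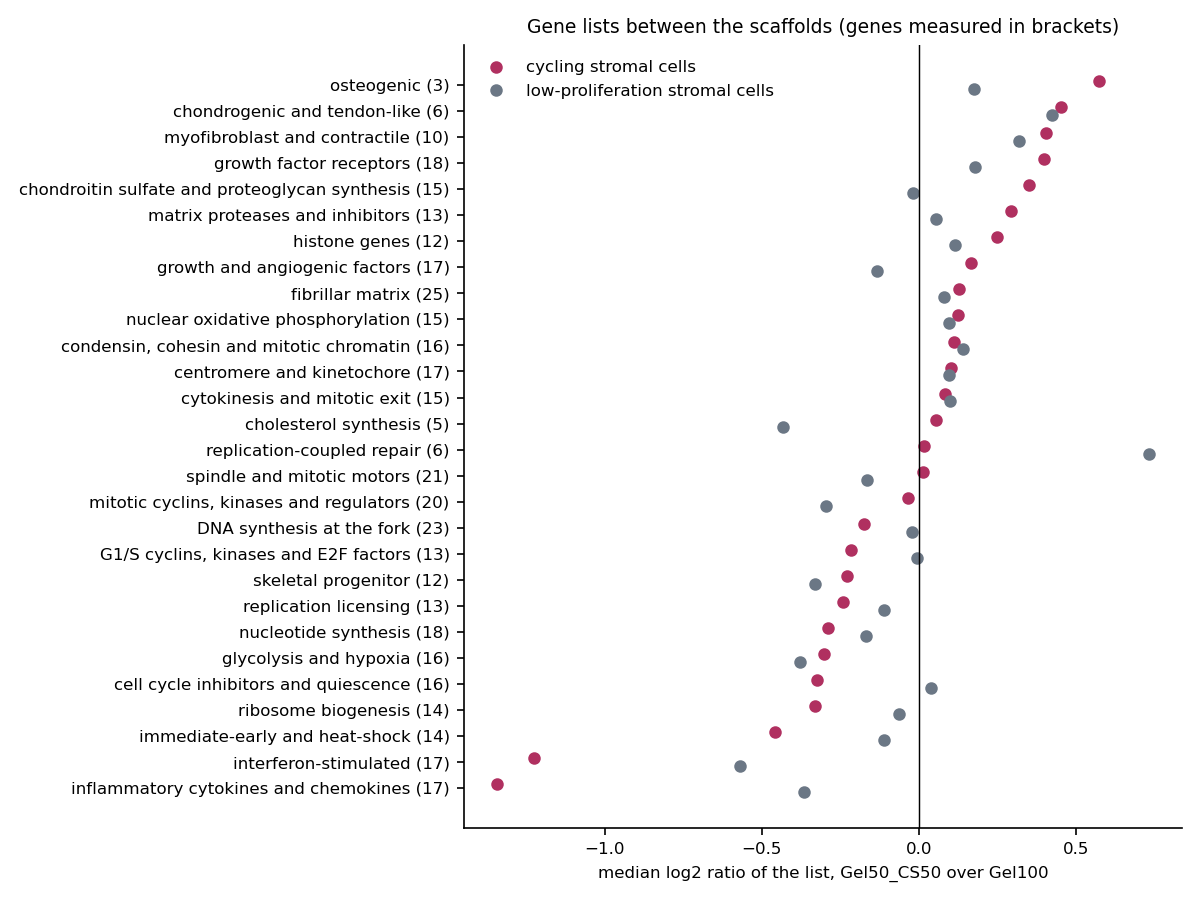
Median log2 ratio of Gel50_CS50 over Gel100 for each gene list (rows), with separate symbols for cycling and low-proliferation stromal cells. Of the cycling symbols, those of the inflammatory list (-1.34) and the interferon-stimulated list (-1.22) lie farthest to the left, and the mitotic lists lie near 0 in cycling cells.

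The 12 genes with the highest ratio over all measured genes were Mmp13, Col4a2, Epha3, Itgbl1, Col11a1, Brinp3, S100a9, Col4a1, Edil3, H19, Unc5c and Rnf150. Mmp13, collagenase 3 (9:7272514-7283331, plus strand), was at 3.91 and 114.7 CPM in cycling cells, 4.87 (3.82 to 6.20), and at 33.2 and 229.9 CPM in low-proliferation cells, 2.79 (2.53 to 3.06). It was found in only 2 of 27 and 9 of 57 members, and 1 cell held 85.7% and 42.0% of its UMIs. Col11a1, a minor chain of cartilage and early fibrils (3:114030540-114220718, plus strand), was at 100.5 and 479.4 CPM in cycling cells, and at 341.0 and 703.1 CPM in low-proliferation cells. S100a9, a neutrophil protein, was at 25.1 and 105.8 CPM in cycling cells, with 73.4% of its Gel50_CS50 UMIs in 1 cell, beside the neutrophil markers given above. In low-proliferation cells it was at 51.9 and 59.9 CPM, a ratio of 0.21.

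The 12 with the lowest ratio were Cxcl9, Rsad2, Cxcl10, Ptgs2, Ccbe1, Hmga2, H2-Q7, Slfn2, Errfi1, Ccl2, Plac8 and Spata7. Cxcl9, another interferon-induced T cell attractant, was at 324.0 CPM in cycling cells of Gel100 and 26.2 CPM in those of Gel50_CS50, and 1 cell held 30.3% of its UMIs in Gel100. Its ratio was -3.63, beside -1.42 in low-proliferation cells. Among the members without UMIs of Ptprc, Tyrobp and Csf1r it was -0.45. Ptgs2, the inducible prostaglandin synthase, was at 192.2 and 28.9 CPM, beside 166.8 and 95.2 CPM in low-proliferation cells. A single cell held 91.8% of the Ccbe1 UMIs in Gel100, and without each sum's richest cell the ratio of Ccbe1 was 0.39 in place of -2.49. In low-proliferation cells the ratio of Ccbe1 was 1.21. For Hmga2, a chromatin protein of growing mesenchyme, 1 cell held 65.9%, and the ratio without the richest cells was -1.14 in place of -2.24, beside 0.76 in low-proliferation cells.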

How the data were processed

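The deposited files hold raw UMI counts per gene and cell barcode, made by the authors with Cell Ranger 6.0.2 per the file headers, on build mm10 per the submitters' processing notes. The annotation release they counted with is not stated in labels or headers. The tables have 32285 genes, of which 38 share a symbol with another and were kept by gene ID. The libraries hold 108847835 UMIs in 7845 barcodes (Gel100) and 150311308 UMIs in 7515 barcodes (Gel50_CS50), with medians of 12636 and 16512 UMIs per barcode. Their members sum to 1790258 and 4046549 UMIs, and the low-proliferation cells to 3736131 and 12566145.

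The UMIs of all cells of a class in a library were added and scaled to CPM by their total. Ratios are log2 ratios of such sums with exact conditional binomial intervals, and shares have exact Clopper-Pearson intervals, with a Newcombe interval for their difference. All cover counting error only. A gene was measured at a mean of at least 20 CPM over the sums compared. A sum of 0 was set to 3 counts. No p-value was computed, since each group is 1 library of 5 pooled mice. The members and the gene lists were chosen with earlier results of these data known. Beyond the lists, the genes named are the 12 highest and 12 lowest ratios whose interval lies wholly beyond 1.5-fold, over genes that average 50 CPM or more, for cycling over low-proliferation cells by the weaker library and outside the cell cycle lists. Mitochondrial, ribosomal protein, Xist and Y-linked genes were left out of this naming, and genes singled out under a list, or for values in few cells, were picked as examples after their values were seen.

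Doublets were called with Scrublet at an expected rate of 0.06, which marked 2.3% of the scored barcodes in Gel100 and 2.59% in Gel50_CS50, and were kept except in one alternative. Genes with near-identical copies, such as Hist1h2ap, Ly6a and the Ifit genes, are uncertain. Apart from the genes of the interferon-stimulated list that are named, 1 more gene counts in that list's values and is itself not reported here. Coordinates of genes are from GENCODE vM21, and promoter windows from RefSeq in GRCm38.p6. Tools were scanpy 1.11.5, pandas 2.3.3, numpy 2.4.6, scipy 1.17.1 and matplotlib 3.10.9 under Python 3.11.15. The ratios and intervals were tested on simulated Poisson counts without variation between cells. That setting does not cover genes whose UMIs come from 1 or a few cells. Alternatives varied depth, thinning to 10000 UMIs, the weight of cells, scaling, the limit on low values, the member limit, the rule genes, doublets, the stromal gate, the reference cells, the phase makeup and the richest cell.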

Additional observations from a re-analysis of the deposited data

Results flagged for a closer look

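In 6 genes named above, the ratio of cycling over low-proliferation cells pointed in opposite directions in the 2 libraries, with both ratios at least 1.5-fold from equal and neither interval reaching 0. Over all 7007 measured genes, 26 were past 1.5-fold in opposite directions. The 6 genes were named for their ratio between scaffolds in members. The same member sums enter the ratios here, so that choice favours opposite directions. Each scaffold is 1 library, so the difference between scaffolds was not tested. Rsad2 had a log2 ratio of 0.72 (0.47 to 0.97) in Gel100 and -1.80 (-2.28 to -1.35) in Gel50_CS50. Cxcl9 had 1.09 (0.92 to 1.26) and -1.12 (-1.43 to -0.82). Slfn2, a regulator of lymphocyte and myeloid quiescence, had 0.63 (0.36 to 0.89) and -1.02 (-1.32 to -0.73). Plac8 had 0.90 (0.75 to 1.05) and -0.93 (-1.08 to -0.78). Ccbe1, a secreted factor of lymphatic growth, had 2.79 (2.37 to 3.24) and -0.91 (-1.27 to -0.56), with 91.8% of its UMIs in Gel100 members from 1 cell. S100a9 ran the other way, with -1.05 (-1.55 to -0.57) and 0.82 (0.65 to 0.99), and 73.4% of its UMIs in Gel50_CS50 members came from 1 cell.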

How the results depend on the processing

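With a member limit of 400 CPM, 17 members were left in Gel100, 13.5% of its stromal cells, and the share in Gel50_CS50 was 13.7%, a difference of 0.18 percentage points. With Ccnb1, Ccna2, Cenpf and Nusap1 as rule genes the share was 9.52% (12 members) in Gel100 and 11.1% in Gel50_CS50, with the difference at 1.59 percentage points. Over all alternatives the difference in share ran from -11.5 to 1.59 points. With Ptprc, Tyrobp and Csf1r all at 0, 9 members were left in Gel100 and 9 in Gel50_CS50, where the share was 11.0%.

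The number of genes past 1.5-fold followed the limit on low values. At a mean of at least 100 CPM, 135 genes were higher and 110 lower in cycling cells of both libraries, and 86 higher and 146 lower in Gel50_CS50 members. With no limit beyond 10 UMIs these were 1238, 1418, 1915 and 1526. Thinned to 10000 UMIs, 1052 genes were higher and 1057 lower between scaffolds, and with Ptprc, Tyrobp and Csf1r at 0, 1270 and 1070.

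Of 846 list medians under the alternatives, 49 had the opposite sign, 17 of them with Ptprc, Tyrobp and Csf1r at 0. Most had medians near 0, but with those genes at 0 the interferon-stimulated list went from 0.49 to -0.20 (Gel100) and from -0.24 to 0.76 (Gel50_CS50) for cycling over low-proliferation cells, the contractile list from -0.14 to 0.82 in Gel100, the osteogenic list from 0.22 to -0.55 in Gel50_CS50, and the scaffold median of the proteases from 0.29 to -0.09. The scaffold median of the chondroitin list turned to -0.07 when thinned and to -0.04 with equal cell weights. With Ptprc, Tyrobp and Csf1r at 0, the chondrogenic list had a cycling over low-proliferation median of 0.46 in Gel100, the interferon-stimulated list a scaffold median of 0.047, Saa3 cycling ratios of 0.049 and 1.48, and the scaffold ratio was 1.12 for Cxcl10, 1.21 for Ccbe1 and 0.21 for Plac8. Without its richest cell, an alternative chosen after seeing the data, Ccbe1 had 0.39. The cause was not tested. Of the list medians, 722 were labelled as kept, 122 as moved and 2 as reversed. They were judged, where it could be computed, by an interval of the median over the genes of the list. That interval follows the spread among genes and not the counting error, so a kept list median can still have changed in size. Of the ratios of named genes, 555 kept their size within the counting error, 159 moved and 6 reversed.

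No paired analysis was possible because each scaffold has 1 library. The limits are the depth of 27 and 57 cells, a member limit in CPM that shallow cells reach with few UMIs, and genes whose UMIs come from 1 or a few cells.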
